A study of Homo sapiens with 3 samples.

Results

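The 10 genes described here encode subunits of the protein import machinery of the mitochondrial inner membrane: TIMM23, TIMM17A, TIMM17B, TIMM50 and TIMM44 of the presequence translocase (the TIM23 complex), TIMM22 of the carrier translocase (the TIM22 complex), and the small TIM proteins TIMM8A, TIMM9, TIMM10 and TIMM13 of the intermembrane space. They were chosen by gene name, and each of the 10 names was found once among the 63241 genes listed. All 10 passed the filter on low counts that left 19820 genes for testing. Footprints were measured by ribosome profiling (Ribo-seq), which sequences the mRNA fragments shielded by ribosomes, so that a gene's footprint count reflects both how much of its mRNA was present and how densely ribosomes occupied it. These 2 cannot be told apart here, and in bulk cultures a change in the mix of cells cannot be told apart from a change per cell.

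The cells were HEK293T, a line derived from human embryonic kidney in which the SV40 large T antigen, itself a binder of p53, is also present. They expressed a construct of wild-type (WT), G245S or R273H p53, the mutants being recurrent cancer hotspots in the domain with which p53 contacts DNA. The harvest was labelled alike for all 3 groups, with 2 min of cycloheximide to hold ribosomes in place and a 30 min digest with micrococcal nuclease (3 U for each μg of RNA). Each group had 3 culture dishes, taken as its replicates (n = 3 dishes per group), and the dishes of 1 group were pooled at reverse transcription, so that group and pool cannot be told apart. The labels call the cells of all 3 groups stable lines with transient expression. Under treatment, however, they give WT stable expression, and both mutants a Lipo2000 transfection with a WT construct 24 hr before harvest. If that transfection took place, it cannot be told apart from the mutation in either contrast against WT. Groups therefore follow the sample titles. Per the study's methods each line is a single puromycin-selected population, and no group without a construct was analysed here.

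Libraries held 18.7 to 24.6 M counts. Dishes of the same group differed by more than sampling noise in every pair, with a chi-square of 1.48 to 2.62 per degree of freedom, so no library was a copy of another. MDM2 and CDKN1A, genes that WT p53 switches on, were at 860 and 61.1 CPM (footprint counts scaled to a common library total by TMM) in WT. They were at 76.8 and 16.1 CPM in G245S and at 76.7 and 13.9 CPM in R273H. Both were thus highest in the group whose sample title names WT p53. Which mutant is which cannot be checked from these genes. Among markers of the line, CDH2, NEFM and KRT18 were each above 108 CPM in every dish, KRT8 was at 32.4 to 44.5 CPM, and PAX2 and LHX1 were low, at 3.06 to 8.24 CPM. Of the markers of other cells, PTPRC had at most 3 counts, PECAM1 at most 1.001 and DES at most 16.5, while COL1A1, a fibroblast collagen, averaged 27.5 to 32.5 CPM per group.

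Most mitochondrial proteins are made on cytosolic ribosomes and imported. Proteins with a cleavable N-terminal presequence cross the inner membrane through TIM23: TIMM50 receives them, TIMM23 and TIMM17A or TIMM17B form the membrane core, and TIMM44 docks the HSPA9 motor that pulls them into the matrix. Multi-spanning carriers are instead escorted across the intermembrane space by the chaperones TIMM9-TIMM10 or TIMM8A-TIMM13 and inserted by TIMM22. The small TIMs are folded by disulfide bonds. Their cysteines lie in pairs with 3 residues between them, where a pair names this spacing and not a bond.

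This shared feature groups the small TIMs and can be read in their coding regions. These stretches are coding sequence of the canonical transcripts in GENCODE v44 (GRCh38), 5′ to 3′, with the codons of the 2 paired cysteines in capitals.
TIMM9, first pair: TGCtttttggacTGT
TIMM9, second pair: TGTtcagaacatTGC
TIMM10, first pair: TGCcaccggaagTGT
TIMM10, second pair: TGCctggaccgaTGT
TIMM8A, first pair: TGTtgggagaagTGC
TIMM8A, second pair: TGTtttgtgaacTGC
TIMM13, first pair: TGTttccggaagTGT
TIMM13, second pair: TGCatcgccatgTGC
The pairs were separated by 15 codons in TIMM9, 16 in TIMM10 and 14 in both TIMM8A and TIMM13. Over the whole proteins, paired cysteines included, TIMM9 and TIMM10 were identical at 25.9% of 85 aligned residues, and TIMM8A and TIMM13 at 31.8% of 88. TIMM17A and TIMM17B, the alternative partners of TIMM23, were identical at 132 of 169 aligned residues (78.1%).

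The coding regions are short. Those of the small TIMs run from 267 nt (TIMM9) to 291 nt (TIMM8A), TIMM17A has 513 nt and TIMM17B 516 nt, TIMM22 has 582 nt, TIMM23 has 627 nt, TIMM50 has 1059 nt and TIMM44 has 1356 nt. In GRCh38 coordinates, TIMM17A lies at chr1:201955503-201970664 (+) and TIMM17B at chrX:48893447-48898143 (−), each with 6 coding exons. TIMM44 lies at chr19:7926718-7943667 (−) with 13 coding exons, and TIMM23 at chr10:45972489-46003742 (+) with 7. Some members share sequence with other genes, and the counting tool and its use of strand were not given in the sources used here. Of all 30-nt windows of the coding region, 35.5% recurred exactly in TIMM23B for TIMM23, 53.1% in the pseudogene TIMM8AP1 for TIMM8A, 13.4% in 2 pseudogenes for TIMM9 and 10.1% in TIMM17BP1 for TIMM17B. No window of TIMM50, TIMM44, TIMM22, TIMM10 or TIMM13 recurred elsewhere. TIMM8AP1, TIMM17BP1, TIMM9P2 and TIMM9P3 were assigned at most 52.7 counts in any library, against 893 or more for their parent genes. TIMM17B overlaps PQBP1, TIMM13 overlaps TMPRSS9, TIMM22 overlaps ABR and TIMM9 overlaps KIAA0586, in each case on the opposite strand.

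Per kilobase of coding region, the members differed about 6-fold in level. In WT cells TIMM13 stood highest at 406 ± 10.2 CPM per kb (SD, n = 3), followed by TIMM10 at 306 ± 11.9 and TIMM17A at 268 ± 5.48. TIMM23 (203 ± 3.37), TIMM9 (200 ± 7.13) and TIMM8A (192 ± 4.55) came next, and within these 3 each neighbour overlapped the next in its dish values. TIMM17B (172 ± 7.34) and TIMM50 (158 ± 6.33) were lower without overlap, and TIMM44 (68.7 ± 1.76) and TIMM22 (66.9 ± 0.499) were lowest and overlapped each other. Both mutants kept TIMM13 at the top and TIMM44 and TIMM22 at the bottom. The order of the middle differed: TIMM17B ranked above TIMM50 in WT and below it in both mutants, without overlap between the neighbours in any group, and TIMM10 no longer stood clear of TIMM17A in either mutant.

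Partners in the intermembrane space were not equal in footprint level. TIMM9 was at 0.654 ± 0.0481 of TIMM10 per coding length in WT, 0.636 ± 0.0212 in G245S and 0.699 ± 0.0163 in R273H. TIMM8A was at 0.474 ± 0.0135 of TIMM13 in WT, 0.437 ± 0.0295 in G245S and 0.480 ± 0.0271 in R273H. The WT range overlapped that of each mutant for both ratios. The summed CPM of the 10 members was 961 ± 15.4 in WT, 995 ± 13.7 in G245S and 962 ± 11.9 in R273H, so the R273H and WT sums overlapped and the G245S dishes were all above the WT dishes.

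**Figure D1:**
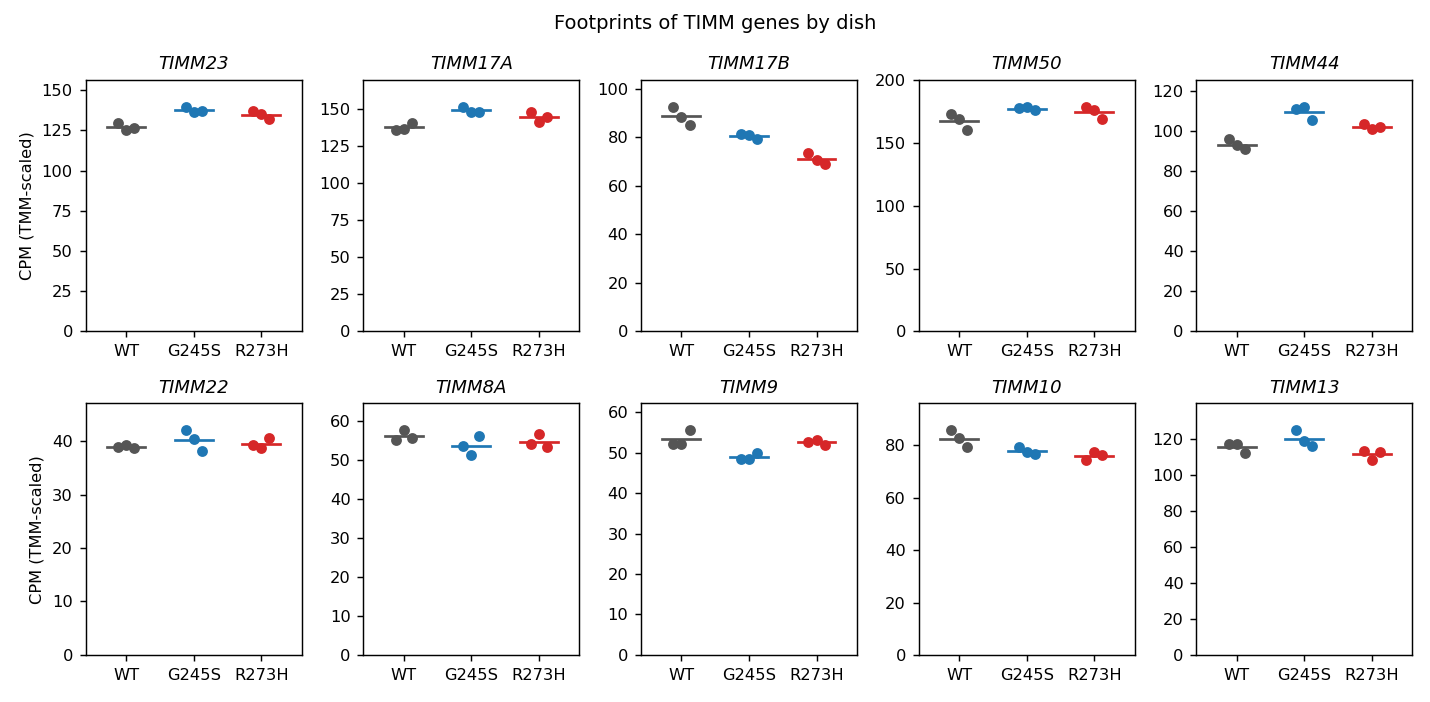
Footprint level (CPM after TMM scaling, y axis from 0, own scale in each panel) of the 10 TIMM genes by group. Points are the 3 dishes of a group and lines are group means; TIMM17B descends from 85.1 to 92.7 CPM in WT to 69.0 to 73.8 CPM in R273H, and TIMM44 is higher in both mutants than in WT.

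Against WT, the subunits of the TIM23 complex split in direction, and of the 4 small TIMs 1 fell in each mutant. In G245S cells TIMM44, TIMM17A and TIMM23 rose and TIMM17B and TIMM9 fell. In R273H cells TIMM44 and TIMM23 rose and TIMM17B and TIMM10 fell. TIMM17B was the only member called between the mutants, and TIMM50, TIMM22, TIMM8A and TIMM13 were not called in any contrast. Called means an adjusted p under 0.05 from edgeR's quasi-likelihood test, with Benjamini-Hochberg adjustment over all genes tested.

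In G245S, 5 of 10 members were called, against 24.7% of all genes tested, and 3 of them were higher (12.6% of all genes) and 2 lower (12.1%). In R273H, 4 of 10 were called, against 28.8% of all genes, 2 higher (14.2%) and 2 lower (14.6%). Between G245S and R273H, 1 of 10 was called, higher in G245S, against 2.59% of all genes (1.86% higher and 0.732% lower). The median log2 fold change of the members was 0.048 in G245S and 0.00096 in R273H, beside −0.00069 and −0.0024 over all genes. Of the 19820 genes tested, 12656 had a mean of at least 100 counts, while each member had 732 or more in every library. Shares among genes of like depth were not computed, so no excess is read from these counts. Both mutant contrasts use the same WT dishes. The count for R273H was 2 without WT dish 2 and also without R273H dish 1, and that between the mutants was 0 without G245S dish 1, G245S dish 2, R273H dish 2 or R273H dish 3 and 3 without G245S dish 3. By edgeR's test against a minimum fold of 1.2, 0 members were called in any contrast. Of all genes, 547 were called by it in G245S, 693 in R273H and 3 between the mutants. TIMM17B in R273H was the 1 member with an unadjusted p under 0.05 by that test.

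**Figure D2:**
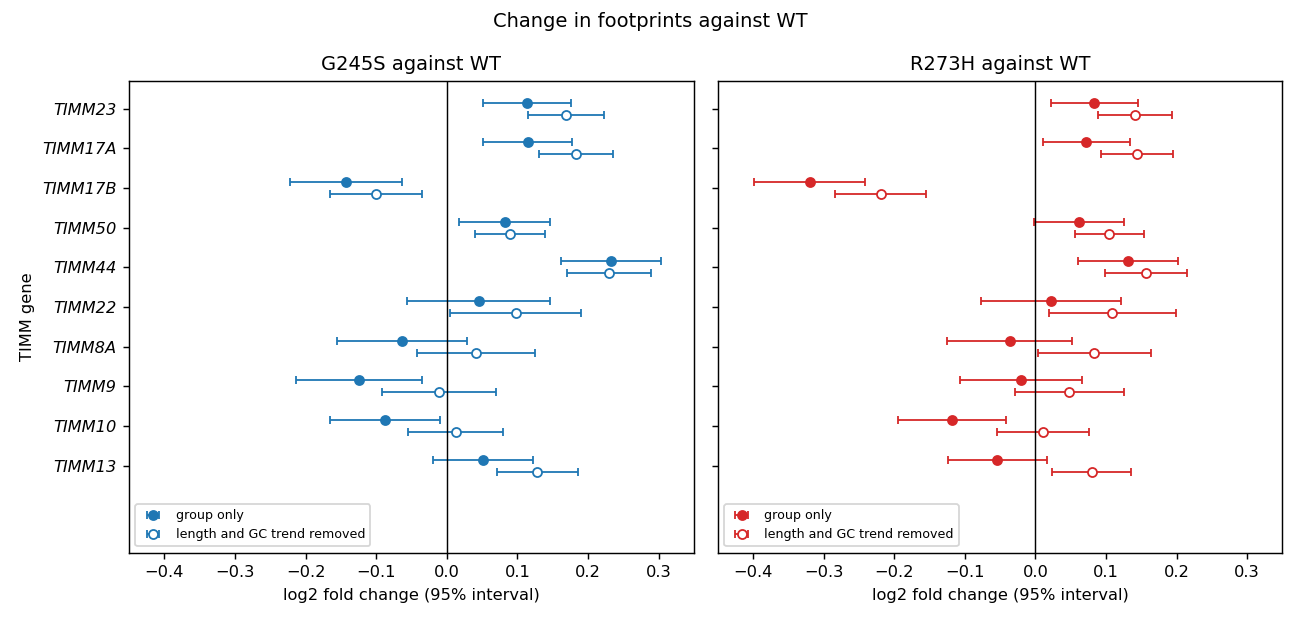
Log2 fold change with its 95% interval (x axis) for the 10 TIMM genes in G245S and R273H against WT. Filled points come from the fit with group alone and open points from the fit after removal of length and GC trends; TIMM44 and TIMM23 lie right of 0 and TIMM17B left of 0 in both fits and both mutants, while TIMM8A and TIMM10 cross to the right in the second.

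TIMM17B, which had fewer footprints than TIMM17A in each dish, was at 92.7, 88.6 and 85.1 CPM in the WT dishes. It was at 81.3, 81.0 and 79.3 CPM in G245S and at 73.8, 70.7 and 69.0 CPM in R273H. WT was highest and R273H lowest, with no overlap between the groups. The log2 fold change was −0.14 (SE 0.0387, edgeR adjusted p = 0.00720) in G245S and −0.32 (SE 0.0383, edgeR adjusted p = 2.3e-07) in R273H, so that TIMM17B fell by 9.38% and fell by 19.9%. G245S exceeded R273H by a log2 difference of 0.18 (SE 0.0387, 95% interval 0.098 to 0.26, edgeR adjusted p = 0.00973). The direction held in each fit that left out 1 dish, but without WT dish 1 the G245S change was −0.11 with adjusted p = 0.0635. Without either of G245S dishes 1 and 2 or R273H dishes 2 and 3, the difference between the mutants was 0.16 to 0.17 with adjusted p of 0.0562 to 0.0631. PQBP1, which overlaps TIMM17B on the other strand, was at 131 ± 3.09 CPM in WT, 126 ± 5.13 in G245S and 120 ± 3.61 in R273H. Its log2 fold change was −0.056 (edgeR adjusted p = 0.258) and −0.12 (edgeR adjusted p = 0.00736) in G245S and R273H, and its part in the TIMM17B counts was not tested.

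TIMM17A, the paralog of TIMM17B, did not share its fall. It was at 135, 136 and 141 CPM in WT, at 151, 148 and 148 CPM in G245S and at 148, 141 and 145 CPM in R273H. Each mutant dish was above each WT dish, by a narrow margin in R273H (141.1 against 140.7 CPM). TIMM17A rose in G245S by a log2 of 0.11 (SE 0.0306, edgeR adjusted p = 0.00620). The R273H value of 0.072 (SE 0.0301, edgeR adjusted p = 0.0740) missed the threshold, which TIMM17A passed without WT dish 3 (0.091, adjusted p = 0.0362).

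The balance within the pair does not depend on how libraries were scaled. A trend in GC content could still move it, as the coding region of TIMM17B is 62.4% GC and that of TIMM17A 49.5%. The share was not recomputed with such a trend removed. TIMM17A made up 59.4%, 60.6% and 62.3% of the TIMM17A and TIMM17B counts in the WT dishes. In the G245S dishes it made up 65.1%, 64.6% and 65.1%, and in the R273H dishes 66.7%, 66.6% and 67.7%. The 3 groups did not overlap and stood in the order WT, G245S, R273H. The group means were 60.8% ± 1.47, 64.9% ± 0.297 and 67.0% ± 0.570 (SD, n = 3), so that G245S exceeded WT by 4.13 points, R273H exceeded WT by 6.24 points and G245S minus R273H was −2.11 points. Each of the 3 differences had an exact permutation p of 0.1 (two-sided, adjusted p = 0.1 over the 3), the smallest that 3 dishes against 3 allow. Leaving out 1 dish at a time gave 3.44 to 4.90, 5.55 to 7.02 and −2.30 to −1.79 points.

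TIMM23, the channel-forming subunit, was at 130, 125 and 127 CPM in WT, at 140, 137 and 137 CPM in G245S and at 137, 135 and 132 CPM in R273H. Neither mutant overlapped WT. Its log2 fold change was 0.11 (SE 0.0305, edgeR adjusted p = 0.00657) in G245S and 0.083 (SE 0.0300, edgeR adjusted p = 0.0366) in R273H. The R273H call was lost without WT dish 2 (0.073, adjusted p = 0.138), WT dish 3 (0.083, adjusted p = 0.0614), R273H dish 1 (0.071, adjusted p = 0.148) or R273H dish 2 (0.082, adjusted p = 0.0922). TIMM23B, its near-identical copy, was at 14.2 ± 0.648 CPM in WT, 17.0 ± 1.36 in G245S and 15.99 ± 1.17 in R273H, and it rose in G245S by a log2 of 0.26 (edgeR adjusted p = 0.0168) while R273H gave 0.17 (edgeR adjusted p = 0.117). With the counts of TIMM23B and the readthrough gene TIMM23B-AGAP6 added to it, TIMM23 gave 0.13 (edgeR adjusted p = 0.00137) and 0.10 (edgeR adjusted p = 0.00924).

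Relative to their channel partner, the TIMM17 genes together were at a lower footprint level in the mutant dishes. The sum of TIMM17A and TIMM17B per coding length was 2.15, 2.19 and 2.17 times that of TIMM23 in the WT dishes, 2.03, 2.04 and 2.02 times in G245S, and 1.97, 1.91 and 1.97 times in R273H. The 3 groups did not overlap in this ratio, which was highest in WT and lowest in R273H. The ratio was not tested. TIMM23, TIMM17A and TIMM17B averaged 203, 268 and 172 CPM per kb in WT. They averaged 220, 290 and 156 in G245S and 215, 282 and 138 in R273H. The lower ratio in G245S thus came without a lower TIMM17 sum.

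**Figure D3:**
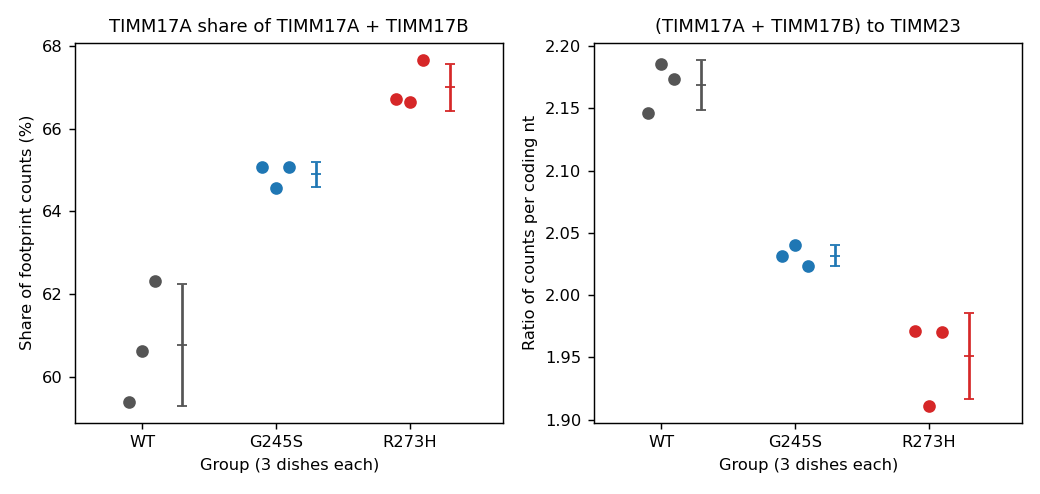
Left, share of TIMM17A in the summed TIMM17A and TIMM17B footprint counts (%); right, ratio of TIMM17A plus TIMM17B to TIMM23 in counts per coding nucleotide. Points are dishes and bars beside them are the mean ± SD of 3 dishes; the y axes do not start at 0, and the share runs from 59.4% in a WT dish to 67.7% in an R273H dish.

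TIMM44, which tethers the HSPA9 motor to the channel, had the largest rise of the 10 in both mutants. It was at 95.6, 92.8 and 90.9 CPM in WT, at 111, 112 and 105 CPM in G245S and at 103, 101 and 102 CPM in R273H. The groups did not overlap, and G245S was highest. The log2 fold change was 0.23 (SE 0.0348, edgeR adjusted p = 9.4e-06) in G245S, a rise of 17.5%, and 0.13 (SE 0.0343, edgeR adjusted p = 0.00443) in R273H, a rise of 9.54%. Both calls held in each of the 9 fits that left out 1 dish. The mutants differed by 0.10 (95% interval 0.033 to 0.17, edgeR adjusted p = 0.111), which missed the threshold, and without G245S dish 3 the difference was 0.13 with adjusted p = 0.0329.

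TIMM50, the presequence receptor, was at 173, 169 and 160 CPM in WT, at 178, 179 and 176 CPM in G245S and at 179, 177 and 169 CPM in R273H. G245S stood above WT in each dish and R273H overlapped it. The log2 fold changes of 0.082 (SE 0.0316, edgeR adjusted p = 0.0565) and 0.061 (SE 0.0311, edgeR adjusted p = 0.144) missed the threshold, with 95% intervals of 0.018 to 0.15 and −0.0023 to 0.13. The G245S change passed it without WT dish 1 (0.11, adjusted p = 0.0254) or R273H dish 3 (0.085, adjusted p = 0.0449). TIMM22, the carrier insertase, was at 38.9, 39.2 and 38.6 CPM in WT, at 42.0, 40.5 and 38.2 CPM in G245S and at 39.2, 38.7 and 40.7 CPM in R273H. The groups overlapped, and the 95% intervals of −0.057 to 0.15 and −0.077 to 0.12 on the log2 scale bound its change.

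The small TIMs were mostly at or below their WT level. TIMM9 was at 52.2, 52.3 and 55.6 CPM in WT, at 48.4, 48.4 and 50.0 CPM in G245S and at 52.7, 53.2 and 51.9 CPM in R273H. G245S lay below the other groups and R273H overlapped WT. TIMM9 fell in G245S by 0.12 on the log2 scale (SE 0.0437, edgeR adjusted p = 0.0366), and R273H gave −0.021 (edgeR adjusted p = 0.764). The G245S call was lost in 4 of 9 fits with 1 dish left out: without WT dish 2 (−0.14, adjusted p = 0.0508), WT dish 3 (−0.090, adjusted p = 0.177), G245S dish 1 (−0.11, adjusted p = 0.107) or G245S dish 2 (−0.11, adjusted p = 0.112). It was also lost with DESeq2 (adjusted p = 0.107), upper-quartile scaling (edgeR adjusted p = 0.0617), no filter on low counts (edgeR adjusted p = 0.0869) and only the 6 libraries compared (edgeR adjusted p = 0.0560). The mutants differed in TIMM9 by −0.10 (95% interval −0.19 to −0.017, edgeR adjusted p = 0.212), so a difference between them was not called.

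TIMM10, the partner of TIMM9, was at 85.7, 82.8 and 79.3 CPM in WT, at 79.3, 77.3 and 76.7 CPM in G245S and at 74.2, 77.7 and 76.5 CPM in R273H. R273H lay below WT and 1 G245S dish stood just above the lowest WT dish. TIMM10 fell in R273H by 0.12 on the log2 scale (SE 0.0373, edgeR adjusted p = 0.0169), and G245S gave −0.088 (SE 0.0381, edgeR adjusted p = 0.0936). The R273H call was lost without WT dish 1 (−0.091, adjusted p = 0.111), WT dish 2 (−0.12, adjusted p = 0.0522) or R273H dish 1 (−0.10, adjusted p = 0.0931). Without WT dish 3 the G245S change was called (−0.11, adjusted p = 0.0430).

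TIMM8A, whose loss causes a deafness-dystonia syndrome, was at 54.9, 57.5 and 55.6 CPM in WT, at 53.5, 51.1 and 55.9 CPM in G245S and at 54.1, 56.5 and 53.1 CPM in R273H, and the groups overlapped. TIMM13, its partner, was at 117, 118 and 112 CPM in WT, at 125, 119 and 116 CPM in G245S and at 114, 108 and 113 CPM in R273H, and here too each mutant overlapped WT. Their log2 fold changes were −0.063 and 0.051 in G245S and −0.036 and −0.054 in R273H, with edgeR adjusted p between 0.257 and 0.581. Between the mutants TIMM13 differed by 0.10 (95% interval 0.035 to 0.17, edgeR adjusted p = 0.102), and without G245S dish 3 by 0.13 with adjusted p = 0.0424.

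Coding length and GC content moved with the libraries and touch these values. Over 10886 protein-coding genes, the Spearman correlation of a library's deviation from the gene mean with coding length was −0.18 to −0.14 in the WT dishes, −0.011 to 0.12 in G245S and 0.14 to 0.19 in R273H. Genes with coding regions of 27 to 573 nt moved by a median of −0.063 (G245S) and −0.083 (R273H) on the log2 scale, beside 0.023 and 0.041 for those of 3231 to 26775 nt. The same correlation with coding GC content was 0.26, 0.13 and −0.18 in the WT dishes, 0.34, 0.30 and −0.18 in G245S and −0.18, −0.14 and −0.42 in R273H, so that it varied within groups and was below 0 in each R273H dish. The coding region of TIMM17B is 62.4% GC and that of TIMM17A 49.5%. The small TIMs, TIMM17A and TIMM17B fall in the shortest length class. Against the median of that class, TIMM17B lay below and TIMM17A above in both mutants. The part of length in the members' changes cannot be told apart from that of the group, since each WT dish lay below each mutant dish in the correlation with length.

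After each library was corrected for a smooth dependence on coding length and GC content, TIMM44, TIMM23 and TIMM17A were called higher and TIMM17B lower in both mutants, and the falls of the small TIMs were not. In that fit 6 of 10 members were called in G245S, against 37.4% of 13619 genes, and 7 of 10 in R273H, against 38.7%. TIMM17B was at −0.10 (SE 0.0324, edgeR adjusted p = 0.0120) in G245S and −0.22 (SE 0.0319, edgeR adjusted p = 2.3e-07) in R273H, and it was again the only member called between the mutants (0.12, edgeR adjusted p = 0.0267, against 3.39% of genes). TIMM17A was at 0.18 (edgeR adjusted p = 1.4e-07) and 0.14 (edgeR adjusted p = 9.0e-06), and TIMM50 became called in both, at 0.090 and 0.10 (edgeR adjusted p = 0.00296 and 0.000401). TIMM9 was then at −0.011 and 0.048, TIMM10 at 0.013 and 0.011, and TIMM8A at 0.042 and 0.084, none of them called. TIMM13 was called higher, at 0.13 in G245S (edgeR adjusted p = 0.000300) and 0.080 in R273H (edgeR adjusted p = 0.0204), where the fit without the trend had given −0.054 for R273H. TIMM22 was called in R273H alone (0.11, edgeR adjusted p = 0.0496), beside 0.098 (edgeR adjusted p = 0.0928) in G245S, and the difference between the mutants was −0.011 (edgeR adjusted p = 0.940).

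**Figure D4:**
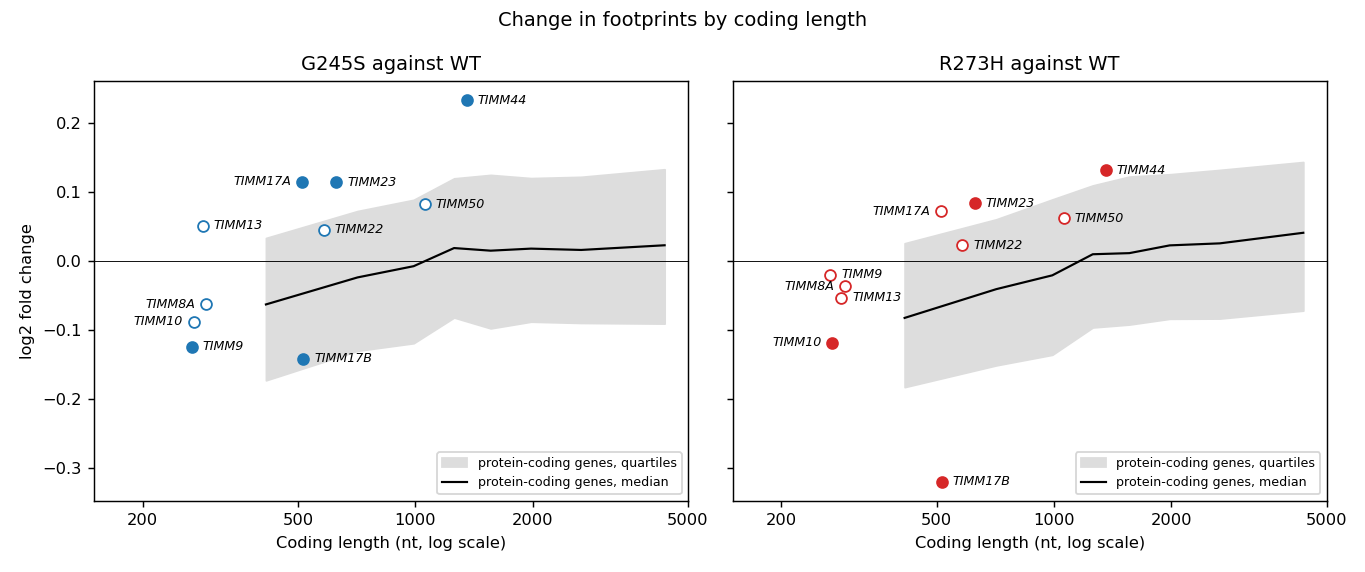
Log2 fold change against WT (y axis) by coding length (x axis, nt, log scale). Line and band are the median and quartiles of protein-coding genes in 8 length classes, points are the 10 TIMM genes (filled where called); the median climbs with length, to 0.023 in G245S and to 0.041 in R273H, and TIMM17B in R273H lies at −0.32, well under the band.

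The rest of the import pathway was described with 29 further genes, of which 28 were tested (DNAJC15 did not pass the filter). In G245S 10 were called higher and 3 lower, with a median log2 fold change of 0.031. In R273H 10 were called higher and 4 lower, with a median of 0.053. Between the mutants 3 were called, all higher in G245S. After the correction for length and GC content 3 were called as well, but 1 was higher in G245S (TOMM22, 0.12, edgeR adjusted p = 0.0157) and 2 were lower, PMPCA (−0.085, edgeR adjusted p = 0.0284) and AIFM1 (−0.075, edgeR adjusted p = 0.0370). These are 13, 14 and 3 of 28, beside the 24.7%, 28.8% and 2.59% of all genes given above. As for the members, shares among genes of like depth were not computed. No excess is therefore read from these counts or from those by role below. Leaving out single dishes moved the totals by over 1.5 times in some fits: to 8 in G245S without G245S dish 2 or dish 3, to 9 and 8 in R273H without WT dish 1 or R273H dish 2, and between the mutants to 0 without G245S dish 1, G245S dish 2 or R273H dish 2 and to 1 without R273H dish 1 or dish 3.

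Around the TIM23 channel, the motor chaperone HSPA9 rose by a log2 of 0.21 (SE 0.0230, edgeR adjusted p = 7.8e-08) in G245S and 0.19 (SE 0.0229, edgeR adjusted p = 3.3e-07) in R273H, which is the same direction as its anchor TIMM44. PAM16, a J-like regulator of that motor, rose by 0.18 and 0.15 (edgeR adjusted p = 0.0169 and 0.0380). ROMO1, a small membrane protein associated with the channel, fell by 0.20 (SE 0.0295, edgeR adjusted p = 6.1e-06) in G245S and 0.32 (SE 0.0292, edgeR adjusted p = 1.8e-09) in R273H, and G245S exceeded R273H by 0.11 (edgeR adjusted p = 0.0349). Its values were close to those of TIMM17B, and like TIMM17B it remained lower with the length and GC trend removed, at −0.12 and −0.17 (edgeR adjusted p = 0.000415 and 3.4e-07), where the difference between the mutants missed the threshold (0.059, edgeR adjusted p = 0.248). TIMM21, an accessory subunit, rose in R273H by 0.23 (edgeR adjusted p = 0.0168), beside 0.013 (edgeR adjusted p = 0.928) in G245S, and the mutants differed by −0.22 (edgeR adjusted p = 0.111). Among the 6 tested genes of this group, 2 rose and 1 fell in G245S, and 3 rose and 1 fell in R273H.

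Among the 5 partners of TIMM22 and further small TIMs, TIMM8B fell by 0.10 and 0.11 (edgeR adjusted p = 0.0393 and 0.0236) in G245S and R273H, and no other was called. With the trend removed TIMM8B was at 0.0048 and 0.026, neither called, and TIMM10B, a small TIM bound to the carrier translocase, was called higher in R273H (0.25, edgeR adjusted p = 0.0140). TIMM29, a subunit of the carrier translocase, had the largest R273H change of that group, −0.15 (edgeR adjusted p = 0.0536), and missed the threshold. The oxidoreductase CHCHD4, which inserts the disulfide bonds of the small TIMs, was at −0.073 (edgeR adjusted p = 0.312) and 0.055 (edgeR adjusted p = 0.429). AIFM1, its membrane anchor, rose by 0.12 (edgeR adjusted p = 0.00132) and 0.20 (edgeR adjusted p = 5.9e-07) and was the only one of the 3 relay genes called. With the trend removed CHCHD4 was also called, higher in R273H (0.14, edgeR adjusted p = 0.0126).

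Several enzymes that act on the imported chains also rose. PMPCA and PMPCB, the subunits of the peptidase that removes presequences in the matrix, rose in G245S by 0.13 and 0.096 (edgeR adjusted p = 0.000547 and 0.0303) and in R273H by 0.20 and 0.19 (edgeR adjusted p = 2.0e-06 and 2.9e-05). MIPEP, a further processing peptidase, rose in R273H by 0.22 (edgeR adjusted p = 0.00206) and gave 0.12 (edgeR adjusted p = 0.121) in G245S. In all, 2 of 5 peptidase genes rose in G245S and 3 in R273H, and none fell. The shares of all genes called higher were 12.6% and 14.2%. OXA1L, the insertase that works from the matrix side, rose by 0.14 and 0.13 (edgeR adjusted p = 0.00292 and 0.00317).

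The outer-membrane TOMM genes, the most similar set, likewise moved both ways. For G245S 4 of 8 were called higher and 1 lower, beside 12.6% and 12.1% of all genes. For R273H 2 were called in each direction, beside 14.2% higher and 14.6% lower of all genes. TOMM20 rose by 0.076 in each mutant (edgeR adjusted p = 0.0328 and 0.0272), and TOMM70, the receptor for carriers, rose by 0.15 and 0.12 (edgeR adjusted p = 0.000930 and 0.00725). TOMM40, which forms the outer-membrane pore, rose in G245S by 0.18 (edgeR adjusted p = 0.000220) and exceeded R273H there by 0.13 (edgeR adjusted p = 0.0313), a difference that missed the threshold with the trend removed (0.077, edgeR adjusted p = 0.0861). TOMM22 likewise rose in G245S by 0.11 (edgeR adjusted p = 0.0357) and exceeded R273H by 0.17 (edgeR adjusted p = 0.0115). The small subunit TOMM6 fell by 0.11 and 0.090 (edgeR adjusted p = 0.0103 and 0.0311), and in R273H TOMM7 fell by 0.10 (edgeR adjusted p = 0.0129). With the length and GC trend removed, ROMO1 was the 1 gene of the 28 called lower than WT in either mutant. In that fit 13 were called higher in G245S and 14 in R273H. Over all 13619 genes of the fit, 2881 of 5089 calls were higher in G245S and 2892 of 5269 in R273H. Neither TOMM6 (0.00027 and 0.049) nor TOMM7 (0.078 and 0.038) was then lower.

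**Figure D5:**
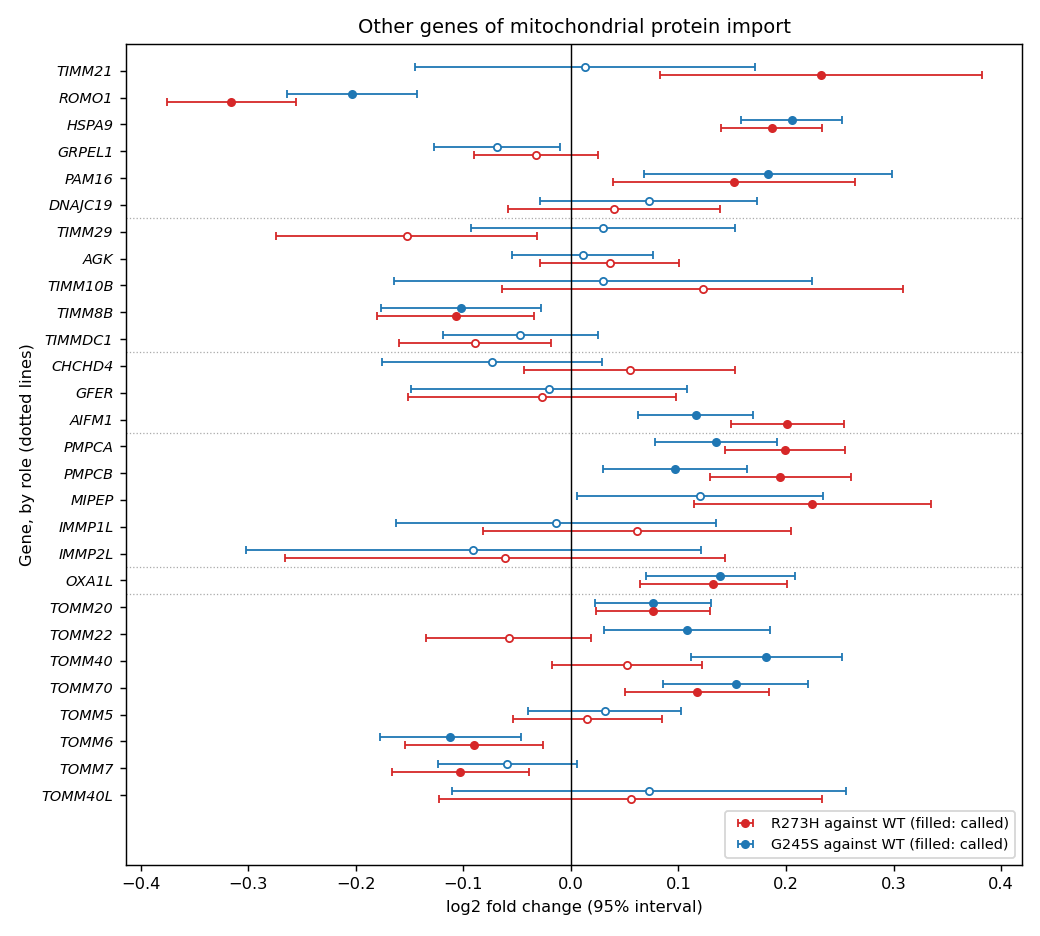
Log2 fold change against WT with 95% interval (x axis) for the 28 tested import genes other than the 10 TIMM members, in G245S (blue) and R273H (red). Dotted lines separate the motor and accessory subunits, TIM22 partners and further small TIMs, disulfide relay, processing peptidases, insertase and TOMM genes; ROMO1 lies farthest left in both mutants, and HSPA9, PMPCA, PMPCB and AIFM1 lie right of 0 in both.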

How the data were processed

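Ribo-seq of HEK293T cells with a WT, G245S or R273H p53 construct, 3 dishes each, was analysed from 1 table. Per the study's methods and the submitters' processing notes, the authors trimmed reads with Trim Galore and Cutadapt, used UMI-tools where applicable, removed rRNA with SortMeRNA and aligned with STAR to GRCh38. The deposited values are expected counts per gene, estimated footprint counts that need not be whole and are not scaled for depth or length; per library, 61.5% to 63.7% of values above 0 had decimals. The counting tool, annotation release and handling of strand were not given in the sources used here, so genes that share sequence or overlap are uncertain. Totals were 18.7 to 24.6 M counts per library, and precision covers dish spread without any variation added after pooling.

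Rounded counts went into edgeR 4.0.16 under R 4.3.3 (TMM, filterByExpr, robust glmQLFit, glmQLFTest, two-sided), in 1 fit of 9 libraries with group as the only term, and adjusted by Benjamini-Hochberg over 19820 genes. The biological coefficient of variation was 2.58%. The TIMM17A share was compared by an exact permutation test over dishes (scipy 1.17.1). CPM used TMM-scaled totals, and levels between genes used coding length of the canonical transcript, without the stop codon, in GENCODE v44 (62666 of 63241 identifiers matched). The fitting was tested on simulated data. Alternatives were RLE and upper-quartile scaling, DESeq2 1.42.0, a minimum fold of 1.2, no low-count filter, only the 6 libraries compared and a dish-number block. Others removed length and GC trends (genes with a mean of at least 100 counts set the trend, splines with 4 degrees of freedom). Single dishes, or dish 3 of each group, were also left out. In a further alternative, chosen after seeing the data, genes that share sequence with a member were summed into it.

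The members, the import list and the tests were chosen with earlier results of these data known. Named were all 10 members, the import genes called in at least 2 of 3 contrasts, the gene of each role with the largest change in each mutant against WT, the label checks CDKN1A and MDM2, and TIMM23B. TIMM21, TIMM10B and CHCHD4 met neither rule for import genes and were named in addition. PQBP1, TOMM7, the genes that share sequence and those of the closing sentences on alternatives were named after their values were seen.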

Additional observations from a re-analysis of the deposited data

Results flagged for a closer look

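TIMM17B changed in the same direction in both mutants but by different amounts. G245S exceeded R273H by 0.18 on the log2 scale (80.5 against 71.2 CPM, edgeR adjusted p = 0.00973), by a test of the difference itself, and each of the 3 G245S dishes was above each of the 3 R273H dishes. Its adjusted p was between 0.0562 and 0.0631 on leaving out 1 dish in 4 of 9 cases, namely without G245S dish 1, G245S dish 2, R273H dish 2 or R273H dish 3, in which the difference was 0.16 to 0.17. With the length and GC trend removed the difference was 0.12 (edgeR adjusted p = 0.0267).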

How the results depend on the processing

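Of 600 refits of the 30 member results (10 genes, 3 contrasts, 20 alternatives), 517 kept direction and side of the threshold, 35 lost a call, 26 gained one and 22 changed sign. None of the sign changes was in TIMM23, TIMM17A, TIMM17B or TIMM44. TIMM44 kept both calls against WT in every alternative but the minimum fold of 1.2. Under that minimum fold the number of members called was 0 in each contrast and the number of the 28 import genes called was 0 in each, with 1 member and 1 import gene at an unadjusted p under 0.05 in R273H and 0 in the other contrasts. TIMM9 in G245S lost its call in 12 of 20 alternatives. In R273H, DESeq2 called 2 members (TIMM23 at adjusted p = 0.0678 and TIMM10 at 0.0576 were lost), against 4056 of 18283 genes. Removing the trend in length and GC content gave 7 members, with or without the dish block. Of 13619 genes, those fits called 5269 without the block and 5491 with it.

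With the trend removed, values that changed sign were TIMM8A in G245S (0.042, with the block 0.041) and R273H (0.084, 0.084), TIMM10 in G245S (0.013, 0.013) and R273H (0.011, 0.011), TIMM9 (0.048, 0.048) and TIMM13 (0.080, 0.080) in R273H, and, between the mutants, TIMM50 (−0.015, −0.014) and TIMM22 (−0.011, −0.011). With dish 3 of each group left out, TIMM22 (−0.00012) and TIMM9 (0.022) in R273H changed sign and 3 members were called between the mutants. That fit called 1026 of 19864 genes between the mutants, where the main fit called 513 of 19820. Single dishes left out changed the sign of TIMM9 in R273H without WT dish 3 (range −0.037 to 0.012) and, between the mutants, of TIMM50 without R273H dish 3 (−0.0019 to 0.038), TIMM22 without G245S dish 1 (−0.0073 to 0.063) and TIMM8A without G245S dish 2 (−0.059 to 0.0059). The cause of these changes was not tested. Over such fits, 4 to 6, 2 to 4 and 0 to 3 members and 8 to 13, 8 to 15 and 0 to 4 import genes were called in G245S, in R273H and between the mutants. Of the 20153 to 20327 genes tested in them, 3899 to 4850, 4526 to 5829 and 162 to 712 were called.

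What a dish number stands for was not given in the sources used here. The deviations of same-numbered dishes correlated at 0.042 to 0.23 over 12656 genes, and those of other dish pairs between groups at −0.18 to 0.058. In 17 of 18 library and other-group combinations a library correlated best with its own number. Same-numbered dishes thus deviated together to some degree, and the main fit has no term for it. With the replicate block 6, 6 and 3 members and 14, 16 and 6 import genes were called. Over all 19820 genes that fit called 5779, 6547 and 1262, beside 4900, 5707 and 513 without the block. Depth limits TIMM22 most, with 732 to 964 counts per library and a standard error of 0.048 to 0.050.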
